A study of Sus scrofa with 18 samples.

Results

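A set of 10 keratin genes of the pig is described here in tumours and in normal tissue. They are KRT4, KRT78, KRT2, KRT5, KRT15 and KRT80, which belong to mucosal and epidermal epithelium, and KRT7, KRT8, KRT18 and KRT19, which belong to simple epithelium. The 10 genes were picked by symbol from the 27339 genes of the count table, by a rule that reads symbols only, although the set was proposed with earlier results of these data known. All 10 had enough reads for the test, which covered 12895 genes.

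The animals carried the double knock-in (DIK), a combination of elements for the doxycycline-controlled Tet-on switch and for the phiC31 integrase, or were wild type (WT). From 7 months of age 3 DIK founders and WT pigs of the same age received doxycycline (Dox), so both genotypes were exposed to the drug. Tumours grew in 1 of the founders, and 8 months after induction tumour tissue of that animal and normal tissue of WT pigs were taken. The 6 groups were DIK tumour and WT normal tissue labelled nose, mouth and scrotum, with 3 RNA libraries each. All 9 DIK libraries therefore come from 1 animal. How many WT animals were used is not stated in these sources, so each p-value refers to the spread between libraries, and that spread may be technical.

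Keratins are the intermediate filament proteins of epithelial cells. A filament is built from pairs of a type I keratin (here KRT15, KRT18 and KRT19) and a type II keratin (here KRT4, KRT78, KRT2, KRT5, KRT80, KRT7 and KRT8), so neither type forms a filament alone. The roles given below are known from human and mouse. Simple epithelia and glands use KRT8 with KRT18, often with KRT7 and KRT19. The basal layer of stratified epithelium uses KRT5 with KRT14, the upper layers of skin use KRT1 and KRT2 with KRT10, and the upper layers of mouth and oesophagus use KRT4 with KRT13. KRT13, KRT14, KRT16 and KRT17 were not matched by symbol and are not analysed here. No sequence of these genes was used here. Keratins are alike in sequence, and the sources do not state how reads that map to several genes were counted, so reads of close relatives may be shared. No gene lengths were used, so levels are compared between libraries for 1 gene and not between genes.

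Libraries held from 418665 counts (WT nose replicate 1) to 5041470 counts (WT nose replicate 3), and 3 counts, taken as the floor of detection, equalled 0.483 to 5.76 CPM, the count scaled to a common library total. The posterior HOX genes, which pattern the hind end of the trunk, summed to 11.7 to 20.4 CPM in DIK mouth-labelled libraries, against 42.2 to 70.8 CPM in WT mouth-labelled libraries. They summed to 0.625 to 4.19 CPM in DIK scrotum-labelled libraries, against 3.36 to 6.52 CPM in WT scrotum-labelled libraries. Of 4 such genes tested, 3 were lower in DIK under the mouth label and none was called at the others. These levels run against the mouth and scrotum labels in both genotypes, so the groups are called by their labels only. Swapping these labels in both genotypes would leave every DIK-WT difference with the same libraries and sign, and the nose comparison does not use them. Skeletal muscle genes summed to 6.64 to 948 CPM in DIK libraries, against 110900 to 153200 CPM in WT nose, 3880 to 9726 CPM in WT mouth and 134000 to 352300 CPM in WT scrotum. In bulk tissue, fewer cells of a type and less RNA per cell cannot be told apart. Among the WT libraries 4 stood apart: nose replicate 1 was shallow, mouth replicate 1 was rich in simple keratins, and scrotum replicates 1 and 2 held hair keratins, replicate 2 also epidermal keratins. The values without them are given where they move a call or a difference of the 10 keratins.

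The keratins made up 2.08% to 6.11% of all counts in the 9 DIK libraries, against 0.018% to 1.81% in the 9 WT libraries. Every DIK library lay above every WT library. The 6 mucosal and epidermal keratins summed to 23090 to 76720 CPM in DIK libraries, against 53.9 to 16980 CPM in WT libraries, and no WT library reached the lowest DIK library. The 4 simple keratins summed to 95.04 to 1969 CPM in DIK libraries, against 52.7 to 4901 CPM in WT libraries, so these ranges overlapped. Called genes are those with an adjusted p under 0.05 in edgeR's quasi-likelihood test with Benjamini-Hochberg adjustment over all genes, which is the source of every adjusted p, and log2 differences are DIK minus WT with their standard error. In the nose, 4 keratins were higher and 3 lower in DIK, where 21.9% of all genes were called higher and 20.1% lower. Under the mouth label 4 were higher and 2 lower, where 22.7% of all genes were called higher and 24.3% lower. Under the scrotum label 4 were higher and 2 lower, where 19.4% of all genes were called higher and 24% lower. The median difference of the 10 keratins was 1.06 in the nose, 0.26 under the mouth label and 2.68 under the scrotum label, against 0.03, -0.04 and -0.09 for all genes. The groups did not overlap for 9 keratins in the nose, 4 with DIK above and 5 with DIK below, where 29.2% of all genes lay above and 25.1% below. Under the mouth label 4 lay above and 1 below, against 29% and 29.7% of all genes. Under the scrotum label 5 lay above and 3 below, against 24% and 27.2% of all genes.

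**Figure D1:**
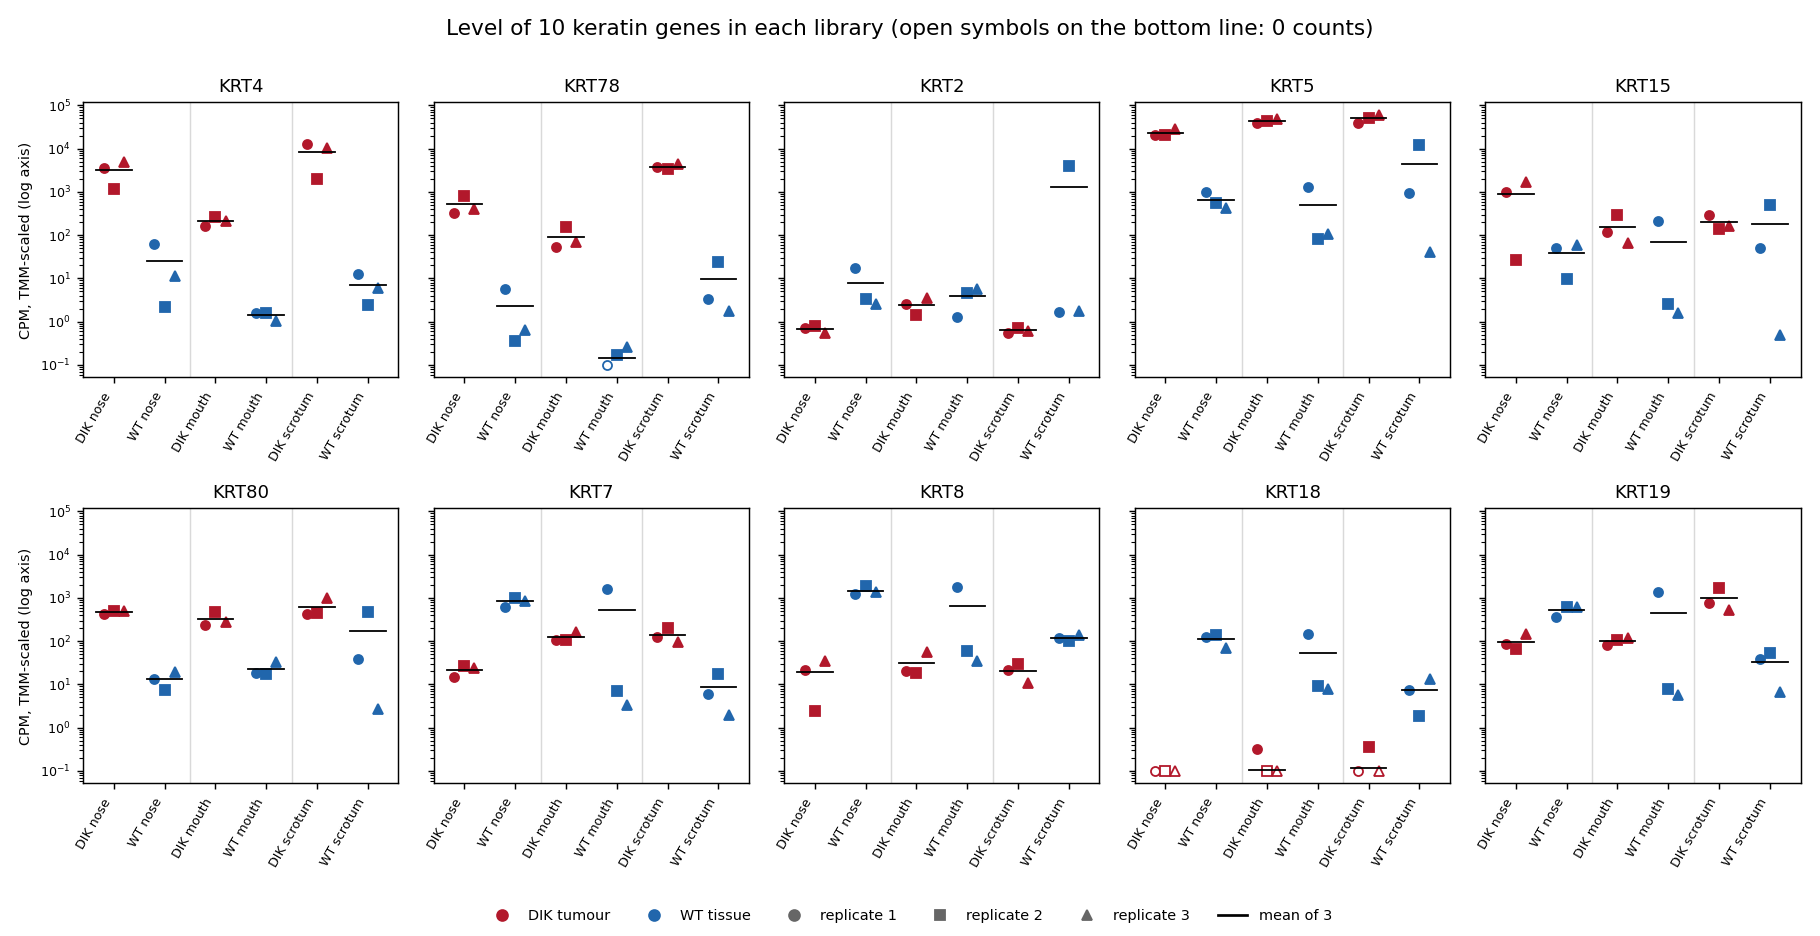
Level of each of the 10 keratins in every library, in CPM on a log axis, with DIK left of WT at each label; a library with 0 counts is drawn at the bottom of the axis, at 0.1. KRT4, KRT78 and KRT5 lie higher in all DIK libraries than in the WT libraries of the same label, KRT18 lies at 0 in 7 of 9 DIK libraries, and KRT2 is high in 1 WT scrotum library only.

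KRT4 and KRT78, keratins of the upper layers of mucosal epithelium, were higher in the tumours under all 3 labels. KRT4 is the type II keratin of the suprabasal cells of mouth and oesophagus. It had 3501, 1177 and 4977 CPM in DIK nose libraries, against 63.3, 2.19 and 11.1 CPM in WT nose libraries. KRT4 had 166, 268 and 217 CPM in DIK mouth-labelled libraries, against 1.61, 1.57 and 1.05 CPM in WT mouth-labelled libraries. All DIK libraries of these labels lay above the WT libraries, and the highest WT value was that of the shallow nose library, where it rested on 33 counts. KRT4 had 13130, 1948 and 10530 CPM in DIK scrotum-labelled libraries, against 13.0, 2.44 and 6.02 CPM in WT scrotum-labelled libraries. The log2 difference was 7.14 ± 1.15 in the nose (adjusted p = 0.000165), 7.21 ± 1.17 under the mouth label (adjusted p = 0.000136) and 10.25 ± 1.29 under the scrotum label (adjusted p = 1.32e-05). Each of these calls was kept under every alternative run, and the nose difference was 8.88 without the shallow WT library.

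KRT78, a type II keratin of differentiating keratinocytes, was close to 0 in most WT libraries. It had 330, 813 and 405 CPM in DIK nose libraries, against 5.76, 0.365 and 0.641 CPM in WT nose libraries, which are 3, 1 and 3 counts. It had 52.5, 151 and 70.6 CPM in DIK mouth-labelled libraries, against 0, 0.174 and 0.262 CPM in WT mouth-labelled libraries. The DIK group held 1052 counts there and the WT group 2, a ratio of 752 with a 95% counting interval of 208 to 6220. KRT78 had 3871, 3370 and 4350 CPM in DIK scrotum-labelled libraries, against 3.36, 23.4 and 1.76 CPM in WT scrotum-labelled libraries. No WT library reached a DIK library at any label. KRT78 was higher in DIK by 8.83 ± 1.16 on the log2 scale in the nose (adjusted p = 2.25e-05) and by 8.63 ± 1.04 under the scrotum label (adjusted p = 7.64e-06), and the mouth difference was also called (adjusted p = 1.95e-05). All 3 calls were kept under every alternative run, and without WT scrotum replicate 2 the scrotum difference was 10.60.

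KRT5, the type II keratin of basal keratinocytes, was higher in the tumours at all 3 labels. It had 20950, 20590 and 28370 CPM in DIK nose libraries, against 996, 565 and 437 CPM in WT nose libraries. It had 39050, 44210 and 48160 CPM in DIK mouth-labelled libraries, against 1292, 82.3 and 105 CPM in WT mouth-labelled libraries. It had 40070, 51460 and 60690 CPM in DIK scrotum-labelled libraries, against 963, 12050 and 41.1 CPM in WT scrotum-labelled libraries. The DIK libraries lay above the WT libraries each time, although WT scrotum replicate 2 came closer than any other WT library. The log2 difference was 5.13 ± 1.47 in the nose (adjusted p = 0.0117) and 6.47 ± 1.57 under the mouth label (adjusted p = 0.00363). Under the scrotum label it was 3.54 ± 1.37 (adjusted p = 0.0478), a call lost in 18 of 30 alternatives. Without WT scrotum replicate 2 the scrotum difference was 6.66 (adjusted p = 0.0023), and without WT scrotum replicate 1 it was 3.07 (adjusted p = 0.144). The nose call was lost without WT nose replicate 3 (4.91, adjusted p = 0.052), and the mouth difference was 8.82 without WT mouth replicate 1.

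KRT80, a type II keratin that in human cells appears late in differentiation near desmosomes, was higher in DIK at the nose and mouth labels. It had 427, 487 and 487 CPM in DIK nose libraries, against 13.4, 7.30 and 19.2 CPM in WT nose libraries. KRT80 had 240, 485 and 279 CPM in DIK mouth-labelled libraries, against 18.2, 17.1 and 33.6 CPM in WT mouth-labelled libraries. The groups did not overlap at either label. The log2 difference was 5.12 ± 1.27 in the nose (adjusted p = 0.00555) and 3.87 ± 1.17 under the mouth label (adjusted p = 0.0152), and the mouth call was lost without WT mouth replicate 1 (adjusted p = 0.0519) or replicate 2 (adjusted p = 0.0572). KRT80 had 428, 455 and 983 CPM in DIK scrotum-labelled libraries, against 38.2, 485 and 2.76 CPM in WT scrotum-labelled libraries. The groups overlapped there through WT replicate 2, and the difference of 1.82 ± 1.07 was not called (adjusted p = 0.186). Without that library it was 4.97 (adjusted p = 0.00029).

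KRT15, a type I keratin of basal cells and of stem cells of the hair follicle bulge, was called at no label. It had 1007, 26.1 and 1729 CPM in DIK nose libraries, against 49.9, 9.86 and 58.6 CPM in WT nose libraries. KRT15 had 119, 289 and 65.0 CPM in DIK mouth-labelled libraries, against 208, 2.61 and 1.57 CPM in WT mouth-labelled libraries. KRT15 had 300, 138 and 165 CPM in DIK scrotum-labelled libraries, against 49.9, 505 and 0.502 CPM in WT scrotum-labelled libraries. DIK and WT overlapped at every label, and DIK nose replicate 2 lay below both other DIK nose libraries and below 2 of the WT ones. The log2 difference was 4.56 ± 2.1 in the nose (adjusted p = 0.0971), 1.15 ± 1.81 under the mouth label (adjusted p = 0.631) and 0.11 ± 1.79 under the scrotum label (adjusted p = 0.969). Without WT mouth replicate 1 the mouth difference was 6.14 (adjusted p = 0.0465). DESeq2 and limma-voom called the nose difference (adjusted p = 0.0233 and 0.0317).

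KRT2, a type II keratin of the uppermost living layers of skin, stayed near the floor in the tumours. It had 0.728, 0.808 and 0.546 CPM in DIK nose libraries, against 17.3, 3.29 and 2.56 CPM in WT nose libraries. KRT2 had 2.53, 1.46 and 3.47 CPM in DIK mouth-labelled libraries, against 1.29, 4.71 and 5.77 CPM in WT mouth-labelled libraries. The nose groups did not overlap and the mouth groups did, and neither difference was called (-2.92 ± 2.42, adjusted p = 0.355, in the nose and -0.63 ± 1.93, adjusted p = 0.812, under the mouth label). KRT2 had 0.559, 0.715 and 0.625 CPM in DIK scrotum-labelled libraries, against 1.68, 3917 and 1.76 CPM in WT scrotum-labelled libraries. One WT library thus held 19225 of the 19236 KRT2 counts of its group. KRT2 was lower in DIK there by -10.94 ± 2.67 on the log2 scale (adjusted p = 0.00488), and without WT scrotum replicate 2 the difference was -1.41 and not called (adjusted p = 0.242). The nose difference, in contrast, was called without that library (-2.81, adjusted p = 0.00551).

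**Figure D2:**
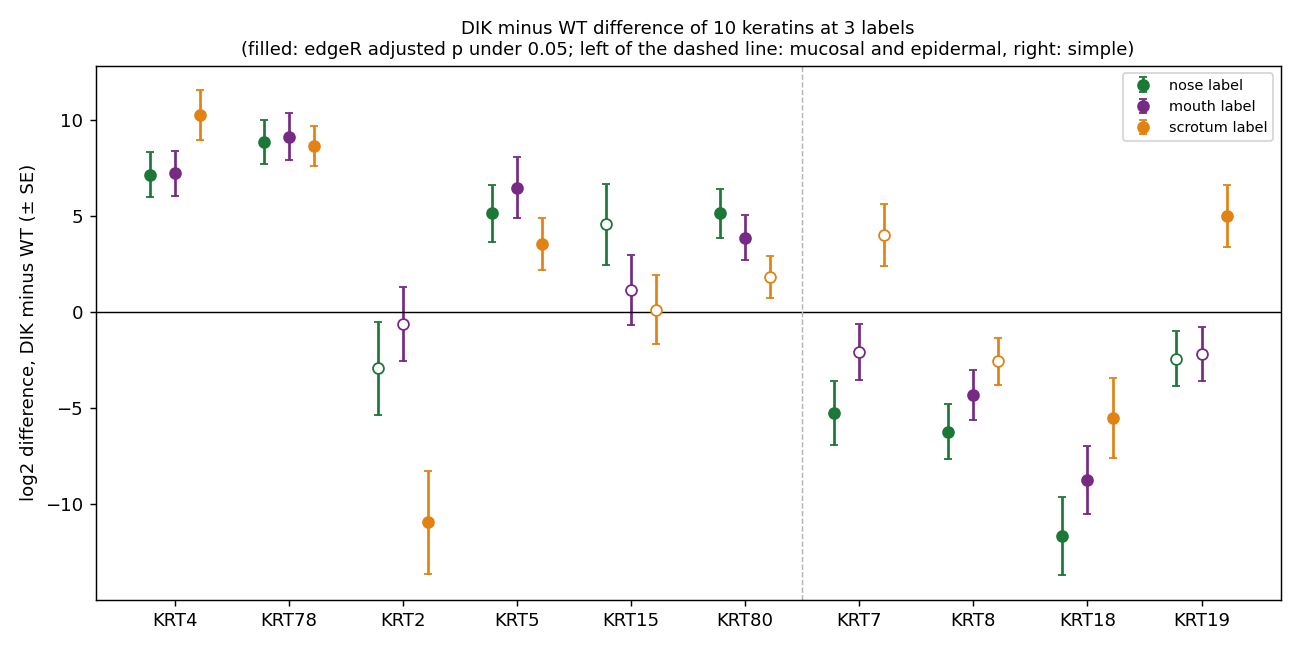
Log2 difference DIK minus WT for each keratin at each label, with its standard error; filled points passed an adjusted p of 0.05 in edgeR's test. KRT4, KRT78 and KRT5 lie above 0 at all 3 labels, and KRT18 lies below 0 at all 3. KRT7 and KRT19 change side between the nose and the scrotum label. The KRT18 points rest on 0 or 1 count per DIK group, so their distance from 0 is no measured fold.

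The simple keratins did not move as 1 group. KRT8, the type II keratin of simple epithelium, had 21.9, 2.42 and 35.2 CPM in DIK nose libraries, against 1221, 1859 and 1371 CPM in WT nose libraries. KRT8 had 21.2, 29.0 and 10.6 CPM in DIK scrotum-labelled libraries, against 120, 100 and 140 CPM in WT scrotum-labelled libraries. DIK lay below WT at both labels without overlap. KRT8 was lower in DIK nose by -6.22 ± 1.43 (adjusted p = 0.00356), while the scrotum difference of -2.55 ± 1.22 was not called (adjusted p = 0.108). It was called without WT mouth replicate 1 (-2.58, adjusted p = 0.00472) and with only the groups compared (-2.61, adjusted p = 0.00245). KRT8 had 20.6, 18.7 and 56.5 CPM in DIK mouth-labelled libraries, against 1821, 58.4 and 35.7 CPM in WT mouth-labelled libraries. These groups overlapped, since 1 WT library was high and the other two lay near the DIK libraries. The mouth difference of -4.32 ± 1.31 was called (adjusted p = 0.0153), but without WT mouth replicate 1 it was -0.60 (adjusted p = 0.497). It was also lost without DIK mouth replicate 1 (adjusted p = 0.0603) or replicate 2 (adjusted p = 0.0593).

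KRT18, the type I partner of KRT8, was close to absent from the tumours. DIK nose libraries held 0, 0 and 0 counts, against 66, 375 and 323 counts in WT nose libraries (127, 137 and 69.0 CPM). DIK mouth-labelled libraries held 1, 0 and 0 counts, against 896, 52 and 30 counts in WT mouth-labelled libraries (144, 9.06 and 7.87 CPM). DIK scrotum-labelled libraries held 0, 1 and 0 counts, against 18, 9 and 52 counts in WT scrotum-labelled libraries (7.55, 1.83 and 13.0 CPM). Every DIK library lay below every WT library of its label. In the nose KRT18 was at least 369-fold lower in DIK, with the bound set at 3 counts over the DIK group (adjusted p = 0.000921). Under the mouth label the ratio of WT to DIK was 684 with a 95% counting interval of 123 to 27100 (adjusted p = 0.00185). WT mouth replicate 1 held 896 of the 978 WT counts, and without it the ratio was 94.7 with an interval of 16.5 to 3790, still called in the edgeR fit (adjusted p = 0.000231). Under the scrotum label it was 55.9 with an interval of 9.74 to 2230 (adjusted p = 0.0495), and that call was lost in 17 of the 29 alternatives that gave a difference. DESeq2, which gave no adjusted p for KRT18, is among these 29 and is not counted as a loss. These intervals cover counting error only.

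KRT18 counts were also set against KRT8 counts. Over the 9 DIK libraries there were 2 KRT18 counts beside 756 KRT8 counts, or 0.265 per 100 with a 95% exact interval of 0.032 to 0.959. Over the 9 WT libraries there were 1821 beside 25266, or 7.21 per 100 with an interval of 6.87 to 7.56. By library the WT ratio ran from 1.83 (scrotum replicate 2) to 22.1 (mouth replicate 3) per 100. The DIK libraries gave 0 in 7 and 1.54 and 1.23 per 100 in the other two. A count of 0 allows up to 1.42 per 100 in DIK mouth replicate 3, the DIK library with most KRT8 counts, and up to 33.3 per 100 in DIK nose replicate 2, where KRT8 had 9 counts. In 6 of the 7 DIK libraries at 0 this limit lay above the lowest WT ratio, so a ratio that low was not detectable there. The intervals pool reads of libraries whose ratios differ and cover counting error only. The ratios are a description without a test over libraries, and the part of reads shared with relatives was not tested.

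**Figure D3:**
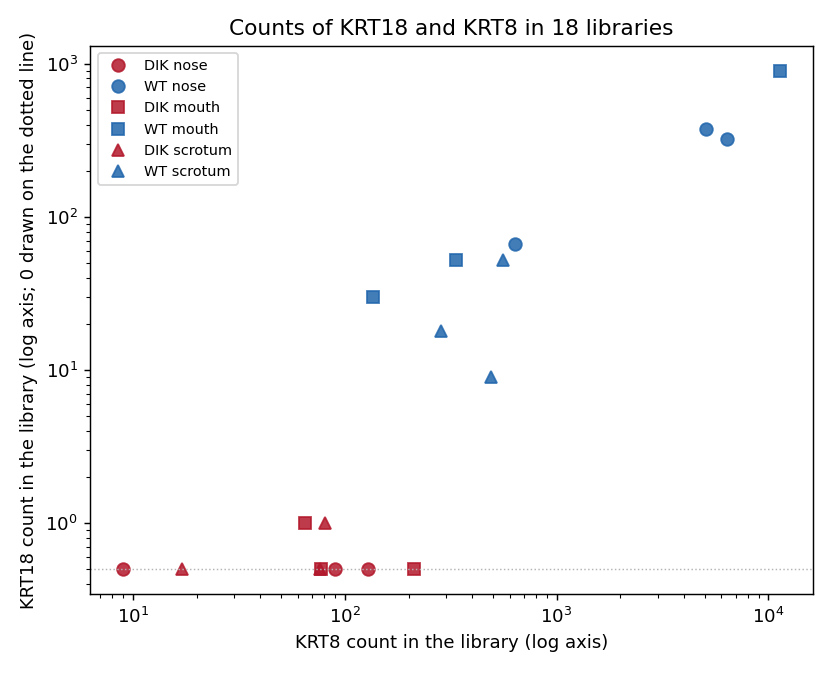
KRT18 count against KRT8 count in each library, both on log axes, with a KRT18 count of 0 drawn on the dotted line. The DIK libraries hold 0 or 1 KRT18 count each, and the 9 WT libraries hold between 9 and 896.

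KRT7 is the type II keratin of many ducts and glands. The RefSeq table used for names lists the gene with this symbol as a long non-coding RNA, so it is not settled that the KRT7 counts are those of the protein-coding transcript. KRT7 was lower in the tumours of the nose and showed no call at the other labels. It had 14.8, 26.9 and 23.8 CPM in DIK nose libraries, against 630, 1016 and 851 CPM in WT nose libraries. The difference was -5.25 ± 1.68 without overlap (adjusted p = 0.0227), and the call was lost when any 1 DIK nose library was left out (adjusted p = 0.0704 to 0.0752). KRT7 had 106, 106 and 167 CPM in DIK mouth-labelled libraries, against 1572, 7.15 and 3.41 CPM in WT mouth-labelled libraries. The DIK libraries lay between 1 high and 2 low WT libraries. The difference was -2.07 ± 1.45 (adjusted p = 0.264), and without WT mouth replicate 1 it turned to 4.51 (adjusted p = 7.22e-05). KRT7 had 124, 206 and 95 CPM in DIK scrotum-labelled libraries, against 5.87, 17.7 and 2.01 CPM in WT scrotum-labelled libraries. The DIK libraries all lay above the WT libraries, and the difference of 4.02 ± 1.61 was not called (adjusted p = 0.0579), with a call in 7 of 30 alternatives, among them that without WT mouth replicate 1 (4.01, adjusted p = 2.68e-05).

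KRT19, a type I keratin without a tail domain that is found in simple epithelium and in some basal cells, was higher in the tumours under the scrotum label. It had 784, 1735 and 531 CPM in DIK scrotum-labelled libraries, against 37.8, 52.4 and 6.77 CPM in WT scrotum-labelled libraries. The difference was 4.97 ± 1.61 without overlap (adjusted p = 0.0234). The call was lost without DIK scrotum replicate 2 (4.35, adjusted p = 0.0631), WT scrotum replicate 1 (5.10, adjusted p = 0.0699) or WT scrotum replicate 3 (4.49, adjusted p = 0.0792). In the nose it had 84.2, 65.7 and 144 CPM in DIK libraries, against 370, 621 and 605 CPM in WT libraries. DIK lay below WT there without overlap, and the difference of -2.44 ± 1.43 was not called (adjusted p = 0.189), while without WT mouth replicate 1, which shares the estimate of spread, it was called at -2.48 (adjusted p = 0.00199). KRT19 had 80.4, 105 and 120 CPM in DIK mouth-labelled libraries, against 1364, 7.84 and 5.77 CPM in WT mouth-labelled libraries. Again 1 WT library was high and the others low: the difference was -2.18 ± 1.42 (adjusted p = 0.227) and turned to 3.84 (adjusted p = 0.000396) without WT mouth replicate 1. Without that library 6 keratins were higher and 1 was lower under the mouth label. Over all alternatives, 2027 to 3796 of all genes were called higher there and 2180 to 3754 lower. Without WT scrotum replicate 2 the scrotum label had 5 higher and 1 lower. In that run 3203 of all genes were called higher, against 2507 with all libraries, and 2129 to 3420 were lower over all alternatives.

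Whether the DIK-WT difference itself changed with the label was tested as an interaction. Between scrotum and nose 1 keratin was called, where 7.65% of all genes were. For KRT7 the difference was larger under the scrotum label than in the nose by 9.27 ± 2.32 on the log2 scale (adjusted p = 0.0304), a call lost in 12 of 30 alternatives with an adjusted p of up to 0.0913. Between scrotum and mouth 2 keratins were called, where 13.1% of all genes were. The KRT19 difference was larger under the scrotum label by 7.15 ± 2.13 (adjusted p = 0.041), but by 1.12 (adjusted p = 0.425) without WT mouth replicate 1. The KRT2 interaction was -10.31 ± 3.18 (adjusted p = 0.0487), but -0.79 (adjusted p = 0.735) without WT scrotum replicate 2. For KRT19 between scrotum and nose the interaction was 7.42 ± 2.14 and was not called (adjusted p = 0.0514). Between mouth and nose 0 of the 10 keratins were called by edgeR, where 8.6% of all genes were, and 0 had an unadjusted p under 0.05. DESeq2 called 0 and limma-voom called 3 in that comparison. Limma-voom called 3337 of all genes there, against 1109 by edgeR. Without WT mouth replicate 1 edgeR called 3: KRT7 at 9.79 (adjusted p = 4.62e-06), KRT8 at 5.66 (adjusted p = 0.00167) and KRT19 at 6.32 (adjusted p = 0.000225). In that run 1748 of all genes were called. With all libraries, no interaction of KRT4, KRT78, KRT5, KRT80, KRT8, KRT15 or KRT18 was called by edgeR at any pair of labels.

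Within the tumours, which all come from 1 animal, label differences were called for KRT4 and KRT78 only. The 3 pairs of labels within a genotype share libraries. Between DIK scrotum and DIK mouth 2 keratins were called, where 2.88% of all genes were. KRT78 was higher under the scrotum label by 5.40 ± 0.90 (adjusted p = 0.00265), a call that held in all 30 alternatives. KRT4 was higher there by 5.30 ± 1.04 (adjusted p = 0.00849), and that call was lost when any 1 DIK mouth library was left out (adjusted p = 0.0529 to 0.0665). Between DIK scrotum and DIK nose 1 keratin was called, where 5.84% of all genes were: KRT78 was higher by 2.90 ± 0.80 (adjusted p = 0.0423), a call lost in 14 of 30 alternatives. Between DIK mouth and DIK nose edgeR called 0 keratins, where it called 1.54% of all genes. Of the 10, 2 had an unadjusted p under 0.05 there, DESeq2 called 1 and limma-voom 2. Of all genes, DESeq2 called 309 and limma-voom 1068, against 199 by edgeR. KRT4 differed by -3.89 (adjusted p = 0.0585) and KRT78 by -2.50 (adjusted p = 0.157) in that pair. For these 2 keratins the DIK mouth libraries lay below the DIK nose libraries without overlap, as for 11.6% of all genes. For KRT2, KRT5 and KRT7 they lay above without overlap, and the share of all genes lying above is not given here. The mean of KRT4 was 3219 ± 1920 CPM in DIK nose, 217 ± 51.0 CPM in DIK mouth and 8535 ± 5850 CPM in DIK scrotum (SD, n = 3 each). The mean of KRT5, for which no pair was called, was 23310 ± 4390 CPM in DIK nose, 43810 ± 4570 CPM in DIK mouth and 50740 ± 10300 CPM in DIK scrotum (SD, n = 3 each).

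Within normal tissue most label differences of the keratins rested on the libraries that stood apart. Between WT mouth and WT nose 1 keratin was called, where 19.8% of all genes were. KRT4 was lower in WT mouth by -3.96 ± 1.06 (adjusted p = 0.014), but by -2.24 (adjusted p = 0.0918) without the shallow WT nose library. Between WT scrotum and WT nose 1 was called, where 6.05% of all genes were: KRT7 was lower in WT scrotum by -6.58 ± 1.80 (adjusted p = 0.0477), a call lost in 20 of 30 alternatives. Between WT scrotum and WT mouth 3 were called, where 23% of all genes were. KRT78 was higher in WT scrotum by 5.90 ± 1.15 (adjusted p = 0.0013), a call kept in all 29 alternatives that gave a difference, though replicate 2 was highest there and without it the difference was 3.93. KRT2 was higher there by 8.39 ± 2.27 (adjusted p = 0.0169), but the difference was -1.13 without WT scrotum replicate 2. KRT7 was lower there by -5.92 ± 1.75 (adjusted p = 0.0258), but the difference was 0.66 without WT mouth replicate 1. The simple keratins as a sum were 2347, 3633 and 2896 CPM in WT nose, 4901, 82.4 and 52.7 CPM in WT mouth, and 171, 172 and 162 CPM in WT scrotum, so only the nose and the scrotum label gave 3 like libraries.

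The other keratins were read beside the 10. Of 45 listed, 26 were in the table and 12 had enough reads for the test. In the nose 5 were higher and 0 lower in DIK, where 21.9% of all genes were called higher and 20.1% lower. Under the mouth label 6 were higher and 1 lower, where 22.7% of all genes were called higher and 24.3% lower. The median differences were 3.70 in the nose, 2.84 under the mouth label and -4.05 under the scrotum label, against 0.03, -0.04 and -0.09 for all genes. KRT6A, a type II keratin of wounded and hyperproliferating epithelium that lies beside KRT5 in the RefSeq annotation, was higher at each label, by 7.68 ± 1.24 in the nose (adjusted p = 0.000138), 9.42 ± 1.33 under the mouth label (adjusted p = 3.26e-05) and 5.95 ± 1.14 under the scrotum label (adjusted p = 0.000522; 8.53 without WT scrotum replicate 2). Those calls were kept under every alternative run, and the nose difference was 8.97 without WT nose replicate 1. KRT1, which shares the upper skin layers with KRT2, had 30540, 15570 and 31580 CPM in DIK nose libraries, against 534, 39.8 and 74.4 CPM in WT nose libraries. It had 14690, 15710 and 14290 CPM in DIK mouth-labelled libraries, against 23.3, 49.2 and 83.7 CPM in WT mouth-labelled libraries. KRT1 was thus higher in DIK where KRT2 was near the floor, by 6.92 ± 2.28 in the nose (adjusted p = 0.0259) and 8.16 ± 2.40 under the mouth label (adjusted p = 0.0133). In scrotum-labelled tissue KRT1 had 382, 39.3 and 311 CPM in DIK libraries, against 23.9, 25240 and 12.5 CPM in WT libraries. As for KRT2, 1 WT library was high. The difference of -5.11 ± 2.09 was not called (adjusted p = 0.0635), and without WT scrotum replicate 2 it turned to 3.75 (adjusted p = 0.0152). Without WT scrotum replicate 1 or 3 it was called at -5.69 (adjusted p = 0.0321 and 0.0237).

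KRT10, the type I partner of KRT1, ran beside it. It was higher in DIK by 6.52 ± 1.96 in the nose (adjusted p = 0.0163) and 6.78 ± 1.98 under the mouth label (adjusted p = 0.0126). The nose calls of KRT1 and KRT10 were lost without WT nose replicate 2 (adjusted p = 0.0868 and 0.0634) or replicate 3 (adjusted p = 0.0936 and 0.0668), and without the shallow replicate 1 the differences were 8.83 and 7.89. KRT10 had 1381, 183 and 1014 CPM in DIK scrotum-labelled libraries, against 47.0, 16970 and 37.1 CPM in WT scrotum-labelled libraries. The DIK libraries lay between 1 high and 2 low WT libraries, and the difference of -2.73 ± 1.64 was not called (adjusted p = 0.196), but turned to 4.35 (adjusted p = 0.00132) without WT scrotum replicate 2. KRT3, known from the cornea and a neighbour of KRT4, had 24180, 9856 and 32330 CPM in DIK nose libraries, against 478, 34.0 and 73.1 CPM in WT nose libraries. It had 44.9, 31.1 and 65.0 CPM in DIK mouth-labelled libraries, against 22.7, 28.8 and 26.8 CPM in WT mouth-labelled libraries. As for KRT4, the DIK mouth libraries lay below all other DIK libraries. KRT3 was higher in DIK nose by 6.85 ± 1.63 (adjusted p = 0.00419) and under the scrotum label by 3.91 ± 1.42 (adjusted p = 0.0387; 8.27 without WT scrotum replicate 2, and lost in 11 of 30 alternatives with an adjusted p of up to 0.117), and was not called under the mouth label (0.85 ± 1.29, adjusted p = 0.615). For the scrotum label edgeR called 2 higher and 5 lower, where 19.4% of all genes were called higher and 24% lower. The lower calls were KRT31, KRT35, KRT36, KRT74 and KRT77. Of these, KRT31, KRT35, KRT36 and KRT74 passed the filter only through WT scrotum replicates 1 and 2 and a few counts in the shallow WT nose library. The count and the median of -4.05 are thus no evidence of a direction. KRT31 and KRT35 are keratins of the hair shaft. KRT35 had 1, 0 and 0 counts in DIK scrotum-labelled libraries, against 438, 1622 and 0 counts in WT scrotum-labelled libraries. WT replicate 3 thus held as few as the tumours, and the groups overlapped. Hair and inner root sheath keratins summed to 1259, 2090 and 2.51 CPM in the WT scrotum libraries, and to at most 4.64 CPM in any DIK library. Without WT scrotum replicate 2, 5 other keratins were higher and 3 lower there. In that run 3203 of all genes were called higher, and over all alternatives 2129 to 3420 were called lower.

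**Figure D4:**
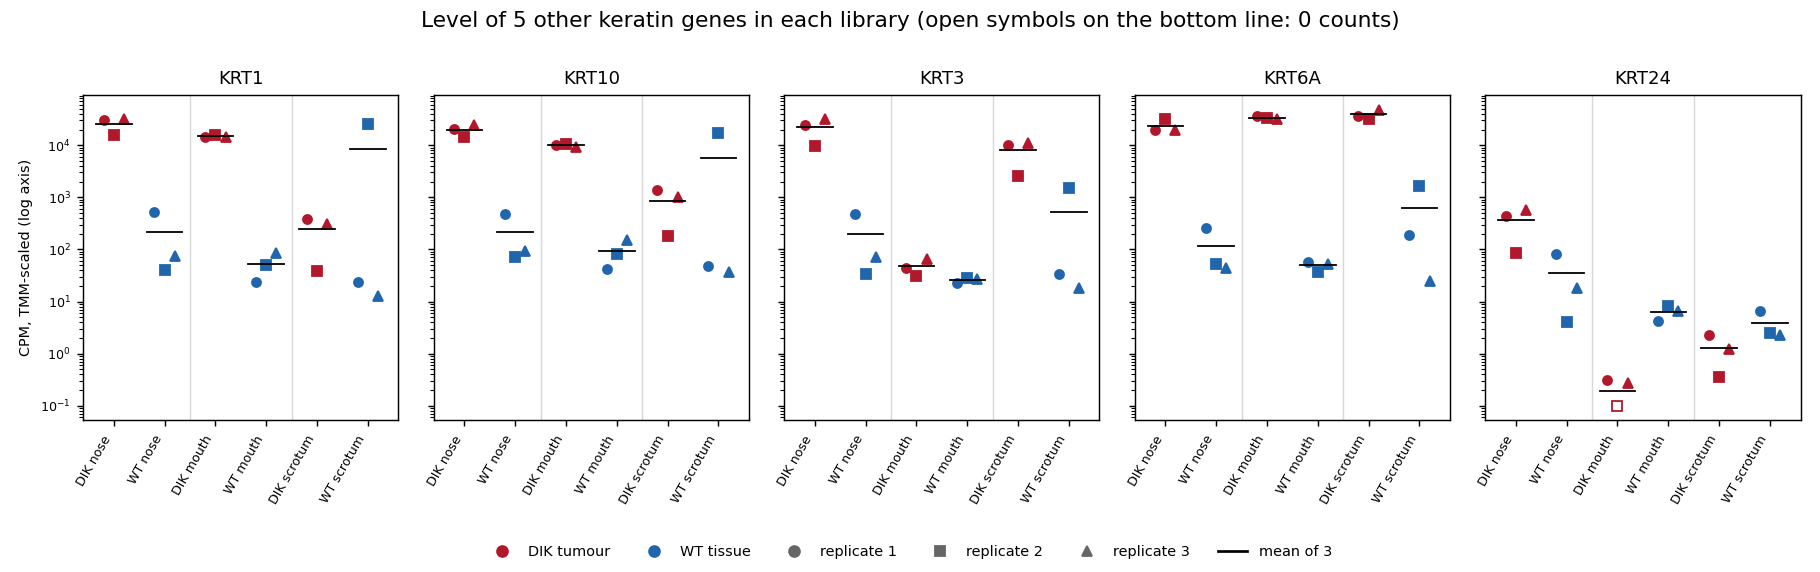
Level of KRT1, KRT10, KRT3, KRT6A and KRT24 in every library, in CPM on a log axis, with DIK left of WT at each label. KRT6A lies higher in all DIK libraries than in the WT libraries of the same label. KRT1 and KRT10 lie higher in the DIK nose and mouth libraries than in WT, and are also high in WT scrotum replicate 2.

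Genes of the keratin anchorage and of other cell types were read in the same comparisons. Of all genes, 21.9% were called higher and 20.1% lower in the nose. These shares were 22.7% and 24.3% under the mouth label, and 19.4% and 24% under the scrotum label. The linkers and organisers of keratin filaments, such as the plakins and the desmosomal plaque proteins, had 15 tested genes, of which 11 were higher and 0 lower in DIK nose, 10 and 1 under the mouth label, and 5 and 4 under the scrotum label. The sum of this list under the scrotum label was 10810, 12480 and 12550 CPM in DIK libraries. It was 692, 4666 and 262 CPM in the WT libraries, with replicate 2 again the highest. PPL, which encodes the cross-linker periplakin, was higher in DIK nose by 2.47 ± 0.31 and under the scrotum label by 1.89 ± 0.30, and JUP, which encodes the plaque protein plakoglobin, was higher under the mouth label by 5.47 ± 0.87. Of 9 basal keratinocyte genes, 6 were higher and 0 lower in the nose, 8 and 1 under the mouth label, and 6 and 1 under the scrotum label. Their sum was 696 to 3195 CPM in DIK libraries, against 162 to 599 CPM in WT libraries, without overlap. TP63, the transcription factor of stratified epithelium, was higher under the mouth label by 6.46 ± 0.81.

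Simple and glandular epithelium had 15 genes in the table, of which 11 were tested, and the sum of all 15 moved with the simple keratins in the nose. It was 368, 656 and 370 CPM in DIK nose libraries, against 946, 1265 and 1061 CPM in WT nose libraries, and 7 of the 11 genes were lower and 0 higher there. KIT, a receptor also found on mast cells and melanocytes, was lower by -4.12 ± 0.49. Under the mouth label the sum was 367, 484 and 395 CPM in DIK libraries, against 342, 19.5 and 12.3 CPM in WT libraries, so WT mouth replicate 1 was high here as for KRT7, KRT8 and KRT19. Of the 11 genes 2 were higher and 2 lower there, and SOX9, a transcription factor of glands and ducts, was higher by 2.60 ± 0.77. Under the scrotum label it was 642, 884 and 410 CPM in DIK libraries, against 78.0, 172 and 48.2 CPM in WT libraries. There 2 of the 11 genes were higher and 0 lower, and ELF3, an epithelial transcription factor, was higher by 9.23 ± 1.23. All 14 skeletal muscle genes were lower in DIK at every label, with medians of -10.48 in the nose, -6.14 under the mouth label with genes at 0 set to their bound, and -12.81 under the scrotum label. Of 10 smooth muscle genes 8 were lower in the nose, 10 under the mouth label and 8 under the scrotum label. Of 10 fibroblast genes these counts were 8, 9 and 8, of 7 endothelial genes 2, 5 and 5, and no gene of these 3 lists was higher. Of 5 hair follicle genes 3 were higher and 1 lower in the nose and under the mouth label, and 1 higher and 2 lower under the scrotum label. The counts of called genes in all these lists stand beside 21.9% of all genes called higher and 20.1% lower in the nose. The shares of all genes were 22.7% and 24.3% under the mouth label, and 19.4% and 24% under the scrotum label. The 4 mesothelium genes in the table were too low to test. The part of these cell types in the keratin differences was not tested.

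**Figure D5:**
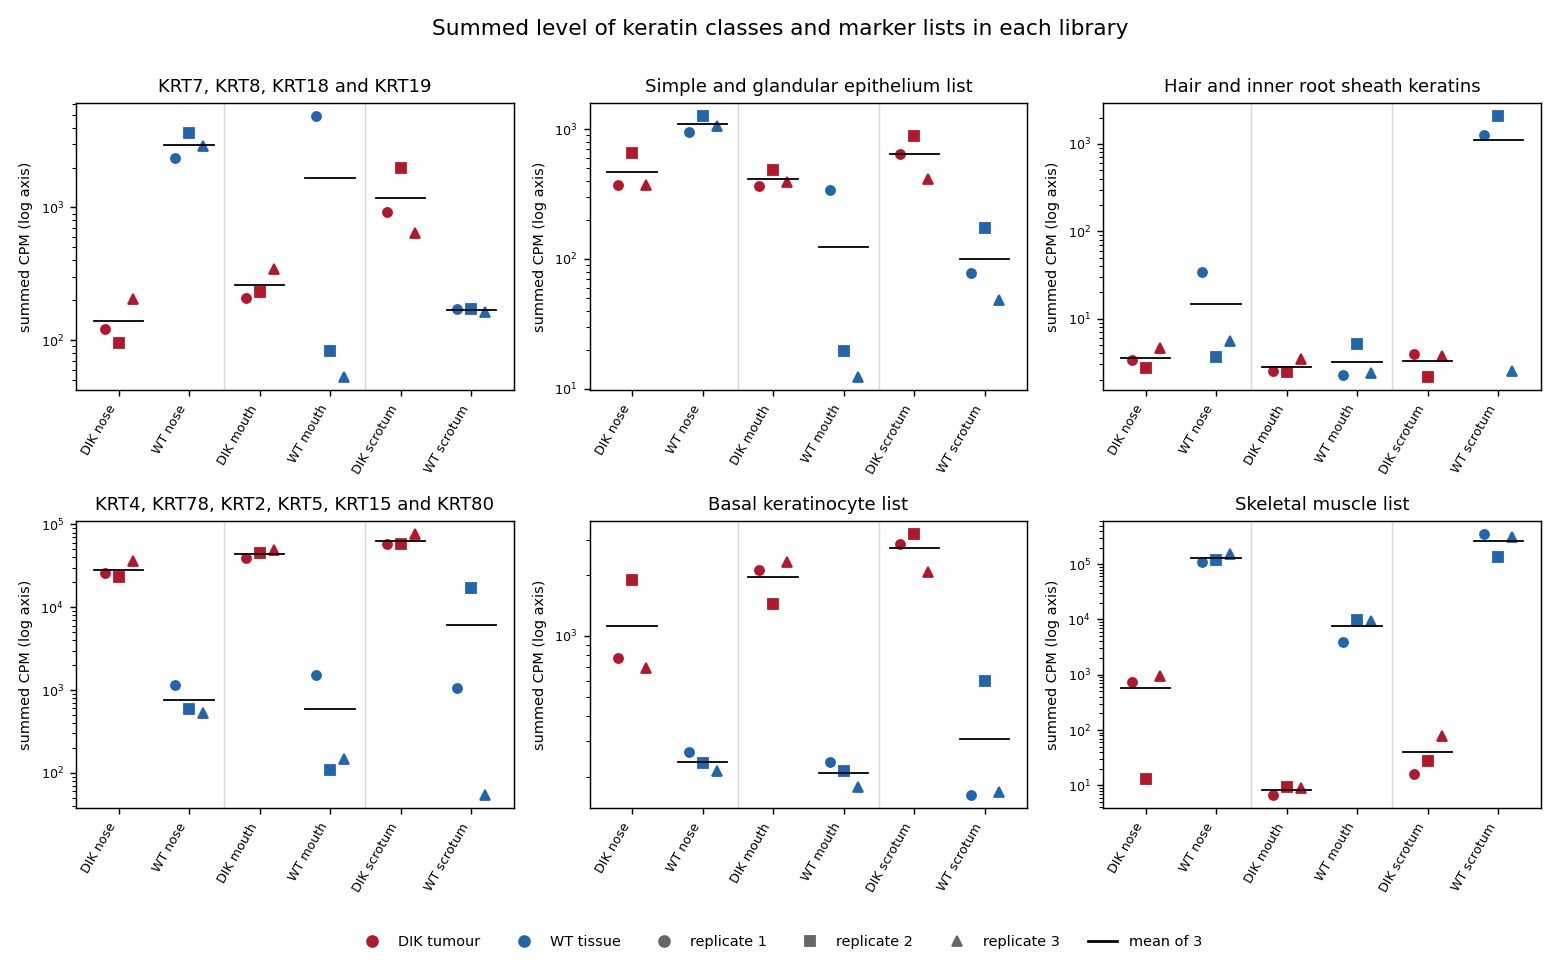
Summed level of keratin groups and marker lists in every library, in CPM on a log axis, with DIK left of WT at each label. The mucosal and epidermal keratins and the basal keratinocyte genes lie higher in DIK, the skeletal muscle genes lie lower in DIK, and the simple keratins of WT mouth replicate 1 stand far above the other WT mouth libraries.

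Across the 18 libraries some keratins ran together, which is given as a description only, since the libraries share genotypes, labels and 1 tumour-bearing animal. Pearson's r of log2 CPM was 0.94 between KRT4 and KRT78, 0.92 between KRT5 and KRT80, 0.92 between KRT8 and KRT18 and 0.87 between KRT7 and KRT19. It was -0.89 between KRT80 and KRT18. The 3 genes most like KRT5 were PKP3, a desmosomal plaque protein, with 0.995, LAD1, a protein of the epithelial basement membrane zone, with 0.993, and SERPINB5 with 0.989. Those most like KRT78 were LGALS4 with 0.987, ZFP36 with 0.980 and TGM3, a transglutaminase of the cornified envelope, with 0.979, and those most like KRT4 were A2ML1 with 0.961, EPGN with 0.955 and LGALS4 with 0.953. For KRT80 they were ITPRIP with 0.969, ENDOU with 0.962 and LYPD5 with 0.962. KRT15 had MT-2B with 0.904, DHRS1 with 0.863 and CAMSAP3 with 0.859. The simple keratins formed 2 pairs by their nearest genes. KRT8 and KRT18 shared EPHX1 (0.949 with KRT8, 0.968 with KRT18) and ENPP4 (0.935 and 0.958), with KIAA1191 at 0.958 as the nearest to KRT8 and TESC at 0.957 beside KRT18. KRT7 and KRT19 shared DSG2, a desmosomal cadherin (0.951 with KRT7, 0.918 with KRT19), with EPCAM at 0.917 and GMDS at 0.915 beside KRT7 and RBM47 at 0.899 and BRI3BP at 0.893 beside KRT19. KRT2 was nearest to the hair keratins KRT35 with 0.722 and KRT31 with 0.721 and to TCHP with 0.709, where Spearman's rho was 0.621, 0.707 and 0.478. KRT2 was high in 1 library only, WT scrotum replicate 2, where KRT35 and KRT31 were also highest. In WT scrotum replicate 1, KRT35 had 184 CPM and KRT2 1.68 CPM.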

How the data were processed

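The authors deposited 1 table of raw counts, whole numbers of reads for each gene in each library. Per the submitters' processing notes the tools were fastp, HISAT2 2.1.0 and HTSeq 0.11.2. Neither the build and annotation nor the handling of strand and of reads with several matches is stated there. If strand was not used, reads of an antisense gene could have been counted too. Per the labels, storage was in RNAlater, RNA was taken with TRIzol and the VAHTS mRNA-seq V3 kit made the libraries.

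Columns were matched to samples by name. Of 27339 symbols, 9918 are placeholders and 26838 matched a RefSeq table of Sscrofa11.1, used for names and neighbours only. Counts were tested in R 4.3.3 with edgeR 4.0.16 (TMM scaling, default filter with minimum count 10 and minimum total 15, robust quasi-likelihood fit, 6 group means over 18 libraries). This left 12895 genes, with 99.1% or more of the counts of every library, and a common biological coefficient of variation of 36.1%. Adjustment was by Benjamini-Hochberg within each contrast. Each standard error was computed as the size of the log2 difference over the square root of its F statistic. Log CPM used a prior count of 2. Floors were 3 counts, and intervals are exact 95% intervals. No DIK-WT contrast shares control libraries with another.

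The 10 keratins, the gene lists and the rule for named genes (the keratins, their partners, the nearest genes by correlation, the called gene with the smallest p of each list) were chosen with earlier results of these data known. Genes shared by lists are DES, DST and TCHH among others. The steps were tested on simulated data. Alternatives were other scalings, filters, thresholds, DESeq2 1.42.0 and limma-voom (limma 3.58.1), the groups compared alone, the replicate number as a block, and each library left out.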

Additional observations from a re-analysis of the deposited data

Results flagged for a closer look

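For 3 keratins the DIK-WT difference differed between labels in edgeR's interaction test. The KRT7 difference was 9.27 log2 units larger under the scrotum label than in the nose (adjusted p = 0.0304), with DIK above WT in 3 of 3 scrotum-labelled libraries and below WT in 3 of 3 nose libraries. That KRT7 call was lost in 12 of 30 alternatives, with an adjusted p of up to 0.0913. The KRT19 difference was 7.15 log2 units larger under the scrotum label than under the mouth label (adjusted p = 0.041), and 1.12 (adjusted p = 0.425) without WT mouth replicate 1. The KRT2 difference was -10.31 log2 units under the scrotum label relative to the mouth label (adjusted p = 0.0487), and -0.79 (adjusted p = 0.735) without WT scrotum replicate 2.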

How the results depend on the processing

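Counts of called keratins are given here as higher or lower in DIK where a direction is named. Some genes did not pass the filter of a run and are then missing from its counts. The cause of the other changes was not tested. DESeq2 called 1 lower in the nose, 0 lower under the mouth and 0 under the scrotum label (it gave no adjusted p for KRT2, KRT8, KRT18 and KRT80, which are not counted as lost), 2 in the scrotum-nose interaction, 1 between DIK mouth and nose and 3 between WT scrotum and nose. Limma-voom called 1 lower under the mouth and 1 under the scrotum label, 3, 2 and 0 in the mouth-nose, scrotum-nose and scrotum-mouth interactions, 2 and 3 between DIK mouth or scrotum and nose, 4 and 4 between WT mouth or scrotum and nose, and 1 between WT scrotum and mouth. An adjusted p under 0.01 left 1 lower under the mouth label, 2 higher and 1 lower under the scrotum label, 1 between WT scrotum and mouth, and 0 in both scrotum interactions and in the pairs DIK scrotum-nose, WT mouth-nose and WT scrotum-nose. With only the groups compared there were 1 lower under the mouth and 1 under the scrotum label, 3 and 0 in the scrotum-nose and scrotum-mouth interactions, 4 and 4 between DIK mouth or scrotum and nose, and 0, 4 and 1 in the WT pairs mouth-nose, scrotum-nose and scrotum-mouth. The keratin called lower under the scrotum label in that run was KRT8, while KRT2 and KRT18 did not pass the filter. Without a filter there were 1 lower under the scrotum label and 0 in both scrotum interactions and in the pairs DIK scrotum-nose, WT mouth-nose and WT scrotum-nose. With at least 10 CPM in 3 libraries there were 1 lower under the scrotum label, 2 and 1 in the scrotum-nose and scrotum-mouth interactions and 2 between WT scrotum and nose. KRT2 did not pass that filter. Library size alone gave 1 lower under the scrotum label, 1 in the scrotum-mouth interaction and 0 in the DIK and WT scrotum-nose pairs, and both median-of-ratios and upper-quartile scaling gave 2 in the scrotum-nose interaction. The median of all genes moved to -0.29 (mouth) and -0.21 (scrotum) with library size alone, and to -0.15 and -0.17 by upper quartiles. Leaving out both WT nose replicate 1 and WT scrotum replicate 2 gave 0 lower under the scrotum label, 0 in both scrotum interactions, 2 between DIK mouth and nose and 0 in the WT pairs mouth-nose and scrotum-nose.

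Replicate numbers did not pair the libraries: same-numbered DIK and WT libraries deviated from their group means with correlations of -0.048 to 0.089. With the replicate block there were 0 calls in the scrotum-mouth interaction, 1 between DIK mouth and nose, 1 between WT scrotum and mouth and 0 between WT scrotum and nose, and KRT15 under the scrotum label was -0.05.

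With each library left out in turn, the counts ran from 3 to 4 higher and 2 to 4 lower in the nose, 3 to 6 higher and 1 to 2 lower under the mouth label, and 2 to 5 higher and 1 to 3 lower under the scrotum label. They ran from 0 to 3, 0 to 3 and 0 to 2 in the mouth-nose, scrotum-nose and scrotum-mouth interactions, 0 to 2, 0 to 3 and 1 to 3 in the DIK pairs mouth-nose, scrotum-nose and scrotum-mouth, and 0 to 5, 0 to 4 and 1 to 4 in the same WT pairs. The direction turned for 8 differences. KRT7 under the mouth label ran from -2.65 to 4.51 with a library left out and was 3.5 by limma-voom, and KRT19 there ran from -2.76 to 3.84 and was 2.98 by limma-voom. KRT15 under the scrotum label ran from -0.47 to 3.04 and was -0.17 with library size alone. Between WT scrotum and mouth, KRT2 ran from -1.13 to 8.99, and was -1.15 without the 2 libraries named above, and KRT7 ran from -7.13 to 0.66, and was -7.14 without them. Under the scrotum label KRT1 ran from -5.69 to 3.75 and KRT10 from -3.31 to 4.35, and they were 2.26 and 3.16 by limma-voom and 3.74 and 4.34 without those 2 libraries. The mouth-nose interaction of KRT19, 0.27 with all libraries, ran from -0.32 to 6.32 and was -0.07 with library size alone.

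Over the alternatives, the other keratins ran from 3 to 6 higher and 0 to 1 lower in the nose, 1 to 7 higher and 0 to 1 lower under the mouth label, and 1 to 5 higher and 0 to 14 lower under the scrotum label. All genes called ran from 1852 to 3189 higher in the nose and 1623 to 3203 higher under the scrotum label (2830 and 2507 as reported), the low ends at an adjusted p under 0.01. In the interactions they ran from 390 to 3337, 277 to 1914 and 733 to 2539 (1109, 986 and 1690 as reported), in the DIK pairs from 44 to 1068, 233 to 2480 and 167 to 1348 (199, 753 and 372), and in the WT pairs from 1496 to 4399, 270 to 1363 and 1557 to 3844 (2558, 780 and 2970). Depth limits KRT18 and KRT2 in DIK and KRT78 in WT, which rest on a few counts each.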
